A study of Mus musculus with 8 samples.

Results

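The most abundant loci of the adult mouse testis were followed from WT testes into testes that lack UPF2, a core factor of nonsense-mediated mRNA decay (NMD), in germ cells. Loci were selected on WT values alone, as those with a mean of at least 500 FPKM over 3 WT whole testes, and 212 of the 39667 loci in the files met this limit. FPKM is a fragment count adjusted for transcript length and for library size. The WT mice were wild type C57BL/6 animals, and the Stra8-KO mice carried Stra8-Cre with Upf2 fl/Δ on the same labelled strain. All were 6 weeks old, and each genotype is represented by 3 testes. Stra8-Cre acts in postnatal germ cells, so the somatic cells of the Stra8-KO testis keep the floxed allele, but beside it they carry the deleted allele (Δ) and so also differ from WT in Upf2 dose. Whether the WT mice carried a floxed allele or Cre is not given in the sources used here. The study describes a loss of spermatocytes and spermatids from Stra8-KO testes, so its germ cell model also differs from WT in the cells that are present. Loci carry identifiers from the Cufflinks assembly and no gene names, so Upf2 itself, markers of the testis and the functions of these loci could not be checked.

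In the adult testis, meiotic spermatocytes and haploid spermatids make up most of the cells, and their RNA dominates a whole-testis library. Late germ cells transcribe messages for packing sperm chromatin and building the tail to very high levels and store many of them for later translation, because transcription stops when the spermatid nucleus condenses. NMD removes transcripts with premature stop codons and some with long 3'UTRs, and UPF2 links the exon junction factors to UPF1 in this pathway. These are general facts, and no locus described here was assigned to any of these messages.

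One feature of the libraries touches every share given below. A total of 83 loci reached at least 1000 FPKM in a single Stra8-KO testis and stayed under 1 in the other 5 testes, and none did so in a WT testis. None of the 212 abundant loci was among them. Their part of the summed FPKM was 26.1, 34.7 and 38.5% in Stra8-KO testes 1 to 3. Shares are therefore given with and without these loci, and their part in the levels of the other loci was not tested. Among the 212 loci, Spearman's rho across loci was 0.888 to 0.937 between WT testes, 0.884 to 0.971 between Stra8-KO testes and 0.534 to 0.657 between genotypes (loci are not independent replicates). The trimming of reads also differed between the genotypes and cannot be told apart from genotype.

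In WT testes the 212 loci, which are 0.534% of all loci, held 28.5, 29.4 and 29.3% of the summed FPKM. In Stra8-KO testes 1 to 3 they held 15.2, 13.0 and 12.7%. The WT shares describe the choice itself, whereas the Stra8-KO values were not used to choose. Without the loci high in a single testis, the Stra8-KO shares were 20.6, 19.9 and 20.7%, and all 3 still lay below the WT shares. The FPKM of the 212 loci summed to 249022 ± 14771 in WT testes and to 122896 ± 2087 in those of Stra8-KO mice (SD, n = 3 each), so 49.4% of the WT sum was kept. FPKM is relative to library size, so this sum is not an amount of RNA per testis. Loci that were neither in this list nor high in a single testis kept 79.0% of their WT sum. The 10 loci with the highest WT mean took 25.2 to 26.4% of the summed FPKM of the 212 loci in WT, against 26.4 to 28.5% in the mutant testes.

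**Figure D1:**
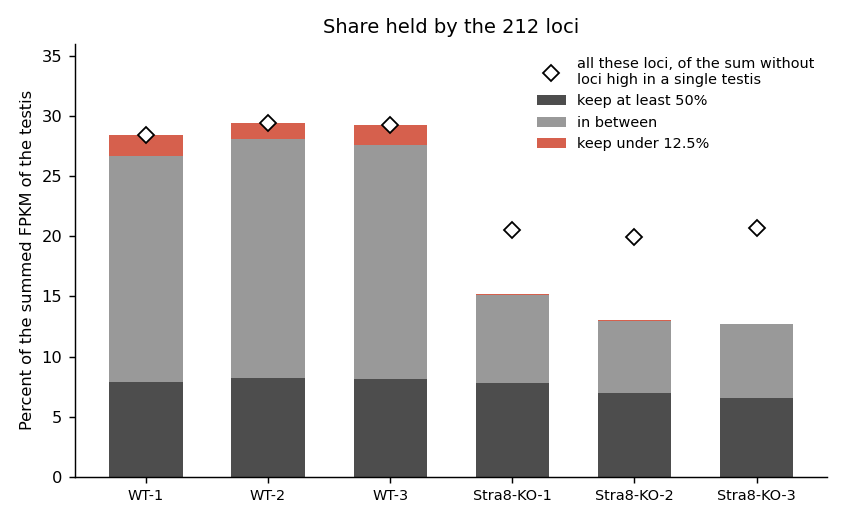
Percent of the summed FPKM of each testis held by the 212 abundant loci, one bar per testis, split by the part of the WT mean a locus kept on average in Stra8-KO testes (at least 50%, between, under 12.5%). Diamonds give the share of the sum without loci high in a single testis, which is 28.5 to 29.4% in WT testes against 19.9 to 20.7% in those of Stra8-KO mice.

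Most of the abundant loci stood well below their WT level in Stra8-KO testes. The median locus kept 42.4% of its WT mean, the middle 50% of the loci kept between 32.5 and 55.9%, and the central 80% of them between 26.0 and 75.9%. By level, 4 loci kept under 12.5% of the WT mean, 14 kept 12.5 to 25%, 125 kept 25 to 50%, 46 kept 50 to 75%, 15 kept 75 to 100% and 8 were at or above the WT mean. The class of 25 to 50% alone held 59.0% of the loci. The medians in the single Stra8-KO testes were close to each other, at 39.7, 42.0 and 43.6% of the WT mean in testes 1 to 3. All of these values come from bulk tissue, in which fewer cells of a type and less RNA per cell cannot be told apart.

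**Figure D2:**
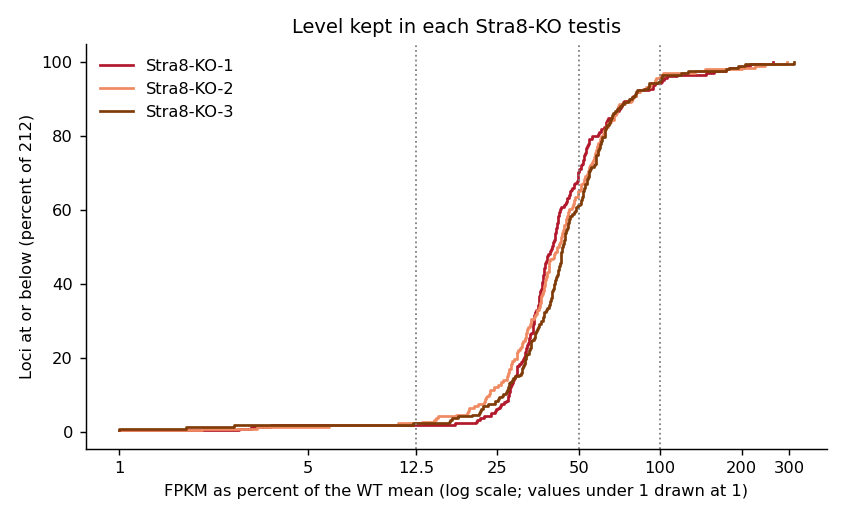
Cumulative percent of the 212 loci (vertical axis) at or below a given percent of the WT mean FPKM (horizontal axis, log scale), one line per Stra8-KO testis, with dotted lines at 12.5, 50 and 100%. The 3 lines lie close to each other, with medians of 39.7, 42.0 and 43.6% in testes 1 to 3. At least 50% was kept at 62, 74 and 82 of the loci in these testes.

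Levels of most loci differed little between the 3 Stra8-KO testes. The highest Stra8-KO testis was under 1.5 times the lowest at 183 of the 212 loci, against 198 for the 3 WT testes. Typically the highest testis was 1.24 times the lowest in Stra8-KO and 1.20 times in WT (medians over loci). Placed in 3 classes by the part of the WT mean kept (at least 50%, under 12.5%, between), 158 loci fell in the same class in all 3 Stra8-KO testes, and none was in the highest class in one testis and in the lowest in another. Stra8-KO testis 1 stood somewhat apart, since it shared its class with testis 2 at 165 loci and with testis 3 at 163, whereas testes 2 and 3 shared it at 200. The retained parts of the loci ranked with a Spearman's rho of 0.976 between testes 2 and 3, of 0.806 between 1 and 2 and of 0.843 between 1 and 3. These are descriptions across 212 loci that share the same WT mean as denominator.

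**Figure D3:**
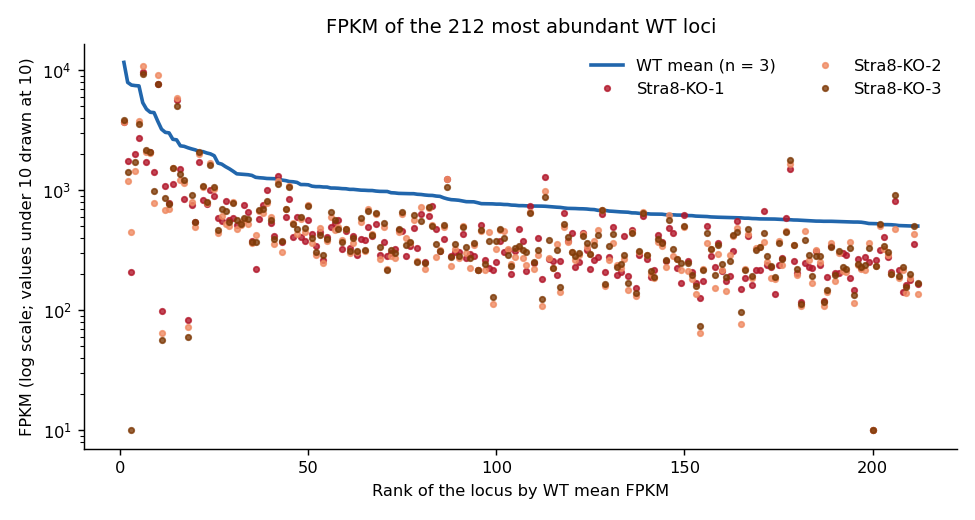
FPKM (log scale) of the 212 loci ordered by WT mean, with the WT mean as a line and each Stra8-KO testis as points. Most points lie below the line at every rank, a few lie above it, and 4 loci lie far below it, with values under 10 FPKM drawn at 10.

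Differences between genotypes were tested with limma on log2(FPKM + 1) across the 18726 loci with at least 1 FPKM in at least 3 testes. Of the 212 abundant loci 211 passed this filter. At an adjusted p-value under 0.05, 187 were lower and 6 were higher in Stra8-KO testes. Over all loci tested, 25.6% were lower and 19.3% were higher. Since the WT values that chose the loci also enter this fit, these counts are a description, and the calls without the choosing testis are given further on. The median log2 fold change of the 211 loci was -1.24, against -0.07 over all loci tested. Every Stra8-KO testis lay below every WT testis at 189 of the 212 loci and above every WT testis at 6, and at the other 17 the genotypes overlapped. The same holds for 30.9 and 25.9% of all loci tested. At least 50% of the WT mean was kept at 69 of the 212 loci and under 12.5% at 4, against 80.8 and 0.712% of the loci tested with a WT value. The 4 include XLOC_037004, which did not pass the filter, whereas the shares over loci tested cover only loci that passed it. Shares without the filter are given further on by band of WT level.

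These counts depend on how the testes are scaled against each other. With each testis scaled to the same sum over the loci that are not high in a single testis, an alternative chosen after seeing the data, the median of all loci tested rose by 0.44 on the log2 scale, and over all loci 2381 were lower and 6696 higher in place of 4796 and 3607. Upper quartile scaling raised that median by 0.11. Under the former scaling 153 of the abundant loci were lower and 10 were higher, and 148 in place of 69 kept at least 50% of the WT mean. Relative to the median of all loci tested, the abundant loci lay at -1.17 (log2) in the deposited values, at -1.15 after upper quartile scaling and at -1.10 after the added one.

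Set beside less abundant loci, the list continued a gradation with WT level. Calls are given as shares of the loci tested in a band, whereas levels kept are over all its loci, tested or not. With a WT mean of 1 to 10 FPKM (9193 loci, of which 8813 were tested), 11.1% were lower and 21.8% higher, and the median locus kept 112% of its WT mean. At 10 to 100 FPKM 34.3% were lower and 15.9% higher, with a median of 81.9% kept, and at 100 to 500 FPKM 74.4% were lower and 4.18% higher, with 55.9% kept. At 500 FPKM and above 88.6% were lower and 2.84% higher. Within the list the gradation was slight, because the 64 loci of at least 1000 FPKM kept a median of 42.0% and the 148 others 43.1%. The share of loci that kept under 12.5% did not follow the order of abundance, with 2.21% at 1 to 10, 0.786% at 10 to 100, 0.499% at 100 to 500 and 1.89% at 500 FPKM and above. Precision differed between bands, since the median SD of log2(FPKM + 1) among WT testes was 0.322 at 1 to 10 FPKM and 0.138 at 500 FPKM and above. Among Stra8-KO testes it was 0.286 and 0.161. Shares of calls therefore compare bands of unlike precision. The bands were set by WT values too, and the difference between bands was not tested.

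**Figure D4:**
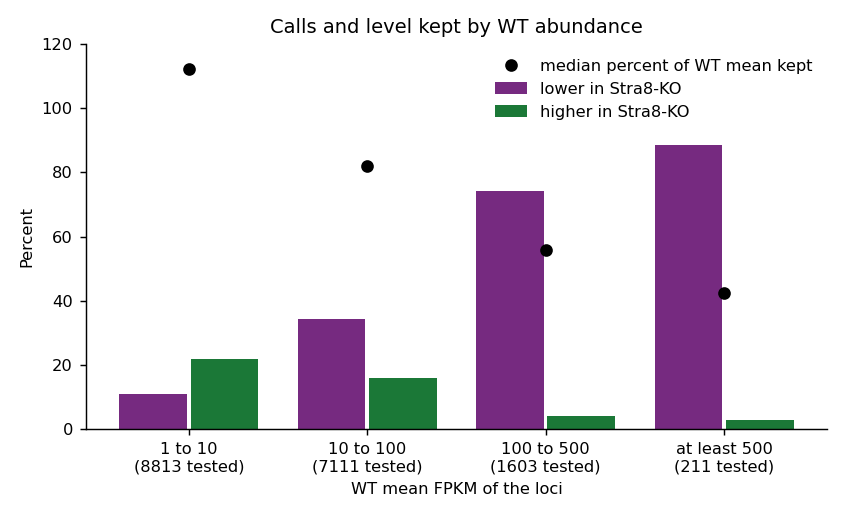
Percent of loci tested that were lower or higher in Stra8-KO testes (bars; limma, adjusted p under 0.05) and the median percent of the WT mean kept (points, over all loci of the band, tested or not), by band of WT mean FPKM. The lower calls go from 11.1% in the lowest band to 88.6% at 500 FPKM and above, while the median level kept goes from 112 to 42.4%.

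The locus with the highest WT mean was XLOC_001376. Its FPKM was 9939, 12362 and 12536 in WT testes 1 to 3 and 3670, 3719 and 3837 in Stra8-KO testes 1 to 3. The Stra8-KO testes lay within 1.05 times of each other and kept 32.2% of the WT mean, with a log2 fold change of -1.63 (SE 0.128; limma, adjusted p = 0.000197). Among all loci its mean ranked as number 1 in WT and as number 34 in Stra8-KO testes, the loci high in a single testis included. XLOC_013384 had 7275, 8538 and 7919 FPKM in WT and 1768, 1192 and 1410 in Stra8-KO testes, or 18.4% of the WT mean. XLOC_013385, with the next identifier, had 7246, 7394 and 7678 FPKM in WT and 1995, 1451 and 1718 in Stra8-KO testes, or 23.1%. Both fell further than the median locus, with log2 fold changes of -2.46 and -2.12 (SE 0.161 and 0.137; limma, adjusted p = 0.000131 for each). XLOC_019362 fell less, from 6430, 7762 and 8006 to 2712, 3760 and 3566 FPKM, which is 45.2% of the WT mean and a log2 fold change of -1.15 (SE 0.161; limma, adjusted p = 0.00152). In none of these 4 loci did the genotypes overlap, and all kept their calls under every alternative run for them.

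The loci that kept most of their WT level include a few that rose. XLOC_001137 had 5828, 5064 and 5199 FPKM in WT and 9651, 10770 and 9381 in Stra8-KO testes, 185% of the WT mean. XLOC_019487 went from 3830, 3790 and 3644 to 7631, 9124 and 7707 FPKM. Its neighbour in the identifier order, XLOC_019488, went from 2953, 2488 and 2445 to 5660, 5892 and 5077 FPKM. At each of the 3 loci every Stra8-KO testis stood above every WT testis. Their log2 fold changes were 0.89, 1.11 and 1.08 (SE 0.118, 0.117 and 0.124; limma, adjusted p = 0.00124, 0.000501 and 0.000689). No other fit run for them ended a call, but XLOC_001137 falls short of the minimum absolute log2 fold change of 1. Together the 3 loci took 4.33 to 5.41% of the summed FPKM of the 212 loci in WT, against 17.8 to 20.8% in the mutant testes. They were grouped because they rose, so the choice fixes the direction of that change. Without the 8 loci at or above the WT mean, the others kept 40.2% of their summed WT FPKM, which leaving out such loci can only lower.

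Of the other loci that rose, XLOC_010476 had the highest part of the WT mean, at 289%. It went from 532, 625 and 547 FPKM to 1491, 1670 and 1771 FPKM, a log2 fold change of 1.53 (SE 0.116; limma, adjusted p = 0.000177). XLOC_032284 stood at 755, 660 and 792 FPKM in WT and at 1291, 986 and 878 in Stra8-KO testes, which is 0.50 higher on the log2 scale (SE 0.160; limma, adjusted p = 0.0370). That call was lost without any 1 WT testis (adjusted p = 0.0633 to 0.115) and without Stra8-KO testis 1 or 2. XLOC_004181 is the other higher locus (named after its values were seen), with 875, 893 and 774 FPKM in WT and 1249, 1235 and 1070 in Stra8-KO testes (adjusted p = 0.0119 from limma). The remaining loci at or above the WT mean, also named after their values were seen, had genotypes that overlapped. XLOC_015537 had 527 to 715 FPKM in WT testes against 612 to 657 in Stra8-KO, and XLOC_026041 had 302, 891 and 346 in WT and 810, 473 and 918 in Stra8-KO testes.

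Most of the loci that kept at least 50% of the WT mean were nevertheless lower in Stra8-KO testes. Of the 69, 45 were lower, 6 were higher and 18 passed no threshold (limma, adjusted p under 0.05). Over all loci tested, 25.6% were lower and 19.3% higher. The class was set by the same values that the fit tests, so these counts are a description. Calls were not counted over all loci that kept at least 50%. A level of at least 50% was reached in all 3 Stra8-KO testes at 45 of them, in 2 testes at 23 and in 1 testis at 1. A further 29 loci, outside the class, reached it in at least 1 testis but not on average. The median of the class was 62.8% and its lowest value 50.4%. Among the 5 with the highest WT mean, XLOC_022070 went from 2247, 2845 and 2880 to 1117, 1543 and 1521 FPKM and XLOC_004366 from 2092, 2597 and 2343 to 1506, 1210 and 1357 FPKM. They kept 52.5 and 57.9% of the WT mean, with log2 fold changes of -0.94 and -0.79 (SE 0.167 and 0.131; limma, adjusted p = 0.00392 and 0.00295). Only XLOC_004366 of the pair lost its call with each testis scaled to the same sum without the loci high in a single testis (log2 fold change -0.28, adjusted p = 0.0997). This class made up 27.8 to 27.9% of the summed FPKM of the 212 loci in each WT testis and 51.2 to 53.9% in the Stra8-KO testes, a direction that the choice of the class fixes.

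At the other end, 4 loci kept under 12.5% of the WT mean, and each was under that limit in all 3 Stra8-KO testes. Their highest value was 3.18%, while the next locus above the limit, XLOC_014124, kept 14.6%. XLOC_006839 had 3046, 3008 and 3617 FPKM in WT and 99.2, 65.1 and 57.0 in Stra8-KO testes. The change was -5.47 on the log2 scale (SE 0.205; limma, adjusted p = 4.72e-05). XLOC_036110 had 1880, 2401 and 2496 FPKM in WT and 82.6, 73.1 and 60.0 in Stra8-KO testes, and its log2 change was -4.96 (SE 0.161; limma, adjusted p = 3.27e-05). Both were low in every Stra8-KO testis, at 2.29 and 3.18% of the WT mean, and neither call was lost under any alternative run for them.

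The other 2 loci of this class have values that differ between testes of a genotype. XLOC_021347 had 8820, 6013 and 7718 FPKM in WT and 208 and 449 in Stra8-KO testes 1 and 2, and it is listed at 0 in Stra8-KO testis 3. Its log2 fold change of -7.35 has an SE of 2.03 (limma, adjusted p = 0.0217), and the call was lost without any 1 WT testis (adjusted p = 0.0509 to 0.0534), where the change was still -7.50 to -7.23. Its size rested on the testis listed at 0. Without Stra8-KO testis 3 it was -4.60 (limma, adjusted p = 0.00104), without Stra8-KO testis 2 it was -9.01, and with a pseudocount of 0.1 it was -8.46. XLOC_037004 had 701 and 881 FPKM in WT testes 1 and 3 but is listed at 0 in WT testis 2 and in all 3 Stra8-KO testes. It did not pass the filter on low values and was not tested. A value listed at 0 at a locus that reads far above this in testes of the same genotype may be a failed estimate of the assembly, which was not tested. XLOC_014124, just above the limit, went from 690, 630 and 503 to 128, 65.0 and 74.4 FPKM, with a log2 fold change of -2.81 (SE 0.253; limma, adjusted p = 0.000298), and it was under 12.5% in Stra8-KO testes 2 and 3 alone.

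**Figure D5:**
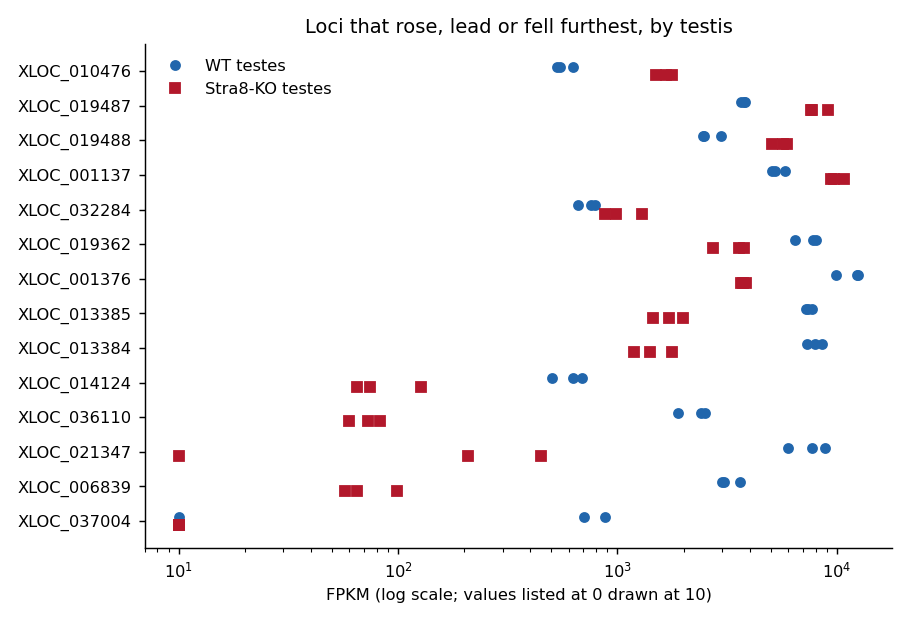
FPKM (log scale) in each WT testis (circles) and each Stra8-KO testis (squares) for the 5 loci with the highest part of the WT mean kept, the 5 with the highest WT mean and the 5 with the lowest part kept (XLOC_021347 is in both of the latter groups), with values listed at 0 drawn at 10. The upper 5 loci have their squares to the right of the circles, and XLOC_021347 and XLOC_037004 have testes at 0.

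Unevenness between Stra8-KO testes was greatest at XLOC_018642, XLOC_028964 and XLOC_014124, among loci above 0 in all 3. XLOC_018642 had 374, 613 and 644 FPKM in WT and 186, 367 and 329 in Stra8-KO testes, so that testis 1 was the lowest in both genotypes. Its log2 fold change was -0.90 (SE 0.300; limma, adjusted p = 0.0422), and the call was lost under each other scaling, without WT testis 2 or 3 (adjusted p = 0.117 for each) and without Stra8-KO testis 1 or 3. XLOC_028964 had 735, 721 and 856 FPKM in WT and 227, 449 and 375 in Stra8-KO testes, or -1.19 on the log2 scale (SE 0.239; limma, adjusted p = 0.00632). Every Stra8-KO testis lay below every WT testis, and Stra8-KO testis 1 was the lowest.

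At the limit of 500 FPKM the loci inside and outside had like values. Just inside, XLOC_017157 had 496, 507 and 505 FPKM in WT and kept 31.0% of it, and XLOC_024270 had 424, 571 and 514 FPKM and kept 85.5%. Just outside, XLOC_001947 had a WT mean of 499.0 FPKM and kept 63.9%, and XLOC_034174 had a WT mean of 498.5 FPKM and kept 46.0%.

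Choosing loci for high values in the same testes that serve as reference can inflate a fall, so the choice was repeated on each single WT testis and read in the other WT testes. At least 500 FPKM was reached by 193 loci in WT testis 1, by 235 in WT testis 2 and by 220 in WT testis 3, and by 184 in all 3. For the loci chosen on WT testis 1, the mean of the other WT testes was 109% of the choosing value (median over loci), and 189 of 193 also had a mean of at least 500 there. For those chosen on WT testes 2 and 3 the medians were 90.1 and 98.9%, and 204 of 235 and 198 of 220 reached 500 in the others. Loci just over the limit and loci far above it moved alike. At 500 to 600 FPKM in the choosing testis the medians in the others were 109, 89.3 and 99.3%, and at 1000 FPKM and above they were 109, 89.3 and 98.7%. WT testis 1, which has the lowest summed FPKM of the 3, also had the lowest value at 144 of the 212 loci, and WT testis 2 the highest at 137.

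Single loci did depend on the choosing testis. XLOC_003870 had 671 FPKM in WT testis 3 and is listed at 0 in the other 5 testes. XLOC_031599 had 937 FPKM in WT testis 2 but 134 and 208 in WT testes 1 and 3, and XLOC_001280 had 582 FPKM against 146 and 190. These were the loci, named after their values were seen, whose mean in the other WT testes was under 250 FPKM.

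Read against the WT testes that had not chosen them, the abundant loci were again lower in Stra8-KO testes. Stra8-KO testes kept a median of 39.7% of the mean of WT testes 2 and 3 for loci chosen on WT testis 1. The medians were 44.9% for loci chosen on WT testis 2 and 43.8% for those chosen on WT testis 3. Their share of the summed FPKM was 28.1 and 28.0% in the WT testes that had not chosen them, 29.6 and 30.4%, and 28.6 and 29.6%, for the choice on testes 1 to 3 respectively. It was 14.6, 12.4 and 12.1% in the 3 Stra8-KO testes for the choice on WT testis 1, 15.9, 13.6 and 13.4% on WT testis 2 and 15.3, 13.2 and 12.9% on WT testis 3.

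The tests were then repeated without the choosing testis, on 2 WT and 3 Stra8-KO testes. Of the 192 tested loci chosen on WT testis 1, 170 were lower and 5 higher at an adjusted p-value under 0.05 (limma), where 23.5 and 18.0% of all loci tested in that fit were called. On WT testis 2 the numbers were 194 lower and 7 higher of 235, against 20.3 and 15.1% of all loci, and on WT testis 3 they were 181 lower and 4 higher of 218, against 21.2 and 15.6%. The lower loci thus made up 88.5, 82.6 and 83.0% of the chosen loci that were tested. Of the 184 loci of at least 500 FPKM in every WT testis, 155 were lower in all 3 fits and 4 were higher, against 18.5 and 13.2% of the loci tested in all 3 fits. That count is a description only, because each fit still holds WT testes that chose these loci. The 3 fits share the Stra8-KO testes and are not independent of each other. At least 50% of the level in the other WT testes was kept at 54 of 193, 90 of 235 and 77 of 220 loci chosen on WT testes 1 to 3. These are 28.0, 38.3 and 35.0% of each list. Under 12.5% was kept at 4, 3 and 4 loci, or 2.07, 1.28 and 1.82%. The shares of all loci against the same WT testes were not counted. Against the mean of all 3 WT testes they were 80.8 and 0.712% of the loci tested.

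With the same limit applied to Stra8-KO values, 156 loci had a mean of at least 500 FPKM, of which 75 were high in a single testis. Of the 81 others, 61 were among the 212, which is 75.3% of this shorter list and 28.8% of the WT list. The WT mean was under 250 FPKM at 9 of the 81 and under 50 FPKM at 4, and 20 of the 81 were not among the 212. In every Stra8-KO testis at least 500 FPKM was reached by 55 loci, of which 46 were among the 212. The other 9 had a median WT mean of 297 FPKM and a lowest of 203 FPKM.

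Some of the abundant loci carried consecutive identifiers. The next identifier was also on the list for 2.36% of the 212 loci, whereas the list holds 0.534% of all loci. There were 4 such runs with 9 loci in all, and 4 of the 5 adjacent pairs fell in the same class of part kept, too few pairs to set against a background. Within a pair the parts kept differed by a median of 1.07 times. XLOC_030928, XLOC_030929 and XLOC_030930 formed the longest run, with WT means of 942, 4462 and 504 FPKM, and kept 49.5, 46.3 and 37.4%. XLOC_034495 and XLOC_034496 kept 50.7 and 48.1% of WT means of 1002 and 690 FPKM, on either side of the limit of 50%. Reads that map to more than 1 of such neighbours were divided by the authors' multi-read correction, so their values may not be separate measurements. This was not tested.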

How the data were processed

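RNA-seq of whole testes, 3 of each genotype with 1 file per testis, was analysed. File columns are numbered from 0, so WT testes 1 to 3 are headed WT_0, WT_1 and WT_2, although the file of the last carries another number. Each file was assigned by the sample it was deposited under. The other 2 samples, purified WT spermatocytes and round spermatids, were not analysed here. The authors trimmed the reads from a different first base in each genotype, mapped them with TopHat2 to NCBIM37 (mm9 in the labels), assembled and quantified them with Cufflinks with bias and multi-read correction and a mask for noncoding and mitochondrial RNA, and deposited FPKM per locus without pooling. The labels also name Cuffdiff, and whether the testes were scaled jointly before deposit was not checked. The depth behind a single locus is not given, so no counting error was computed, and precision rests on the SD over testes. The 212 loci, the lists and the tests were chosen with earlier results of these data known.

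Values were transformed as log2(FPKM + 1), which makes fold changes of low loci smaller. Loci with at least 1 FPKM in at least 3 of the 6 testes were fitted in R 4.3.3 by limma 3.58.1 using a variance trend, genotype as the only term and Benjamini-Hochberg adjustment over all loci tested. The fit was also run on simulated data with few changed loci and independent noise. These settings differ from the testes, so that run is no support for the calls given here. The study calls the testes biological replicates. Each p-value sets the difference between genotypes against the spread between testes, which limma draws toward that of loci of like level. The rest used Python 3.11.15 with scipy 1.17.1, pandas 2.3.3 and numpy 2.4.6, and figures matplotlib 3.10.9.

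The loci named are the 5 with the highest WT mean, overall and among those keeping at least 50% and under 12.5% of it, the 5 with the highest and the 5 with the lowest part kept, the 3 most uneven between Stra8-KO testes, and 2 on each side of 500 FPKM. A locus outside this rule is marked as such. Alternatives were pseudocounts of 0.1 and 10, no filter, no trend, other scalings, a replicate block, a minimum absolute log2 fold change of 1, each testis left out, and limits of 250 and 1000 FPKM. For single named loci the alternative fits were other scalings, a replicate block, a pseudocount of 0.1 and each testis left out. No sequence is shown, because the loci have neither names nor coordinates.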

Additional observations from a re-analysis of the deposited data

How the results depend on the processing

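The direction of the median change of the abundant loci was the same under every alternative run. With each testis left out in turn, and the loci chosen again on the WT testes kept, 205 to 225 were tested, 170 to 199 were lower and 4 to 6 were higher. Over all loci, 20.3 to 23.5% were lower and 15.1 to 18.0% higher without 1 WT testis. These shares were not counted without a Stra8-KO testis. The median log2 change was -1.277 to -1.196, and 66 to 76 loci kept at least 50% and 3 to 5 under 12.5% of the WT mean. The share of the summed FPKM in Stra8-KO testes was 12.9 to 14.1%. Upper quartile scaling moved the median change to -1.115 and median-of-ratios scaling to -1.169. Scaling to the same sum without the loci high in a single testis, added after seeing the data, gave -0.736, 10 higher loci and 148 loci keeping at least 50%, and it reversed XLOC_024270, at 0.28 in place of -0.23, neither past the threshold. Without those loci in the sum, the share in Stra8-KO testes was 20.4% in place of 13.6%. A limit of 250 FPKM gave 541 lower and 17 higher of 633 tested loci, a median of -1.109, 275 keeping at least 50% and a share of 22.7%. With a limit of 1000 FPKM, 57 of 64 were lower and 3 higher, 18 kept at least 50% and the share was 8.12%. These lists are longer or shorter by construction. Both limits use the main fit, in which 25.6% of all loci tested were lower and 19.3% higher. A minimum absolute log2 fold change of 1 left 141 lower loci in place of 187 and 3 higher in place of 6. The shares of all loci past this minimum were not counted.

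WT and Stra8-KO testes carry the same replicate numbers. With the replicate number as a block, 190 loci were lower and 6 higher, and no call on the named loci changed. The median change was -1.24, against -0.07 over all loci tested. Calls over all loci were not counted in that fit. Deviations of same-numbered testes from their genotype means had a Pearson r across loci of 0.132, -0.020 and 0.073. By this check the numbers did not clearly pair the testes, and not every testis correlated best with its own number. Among the 212 loci, Spearman's rho of WT testis 1 was 0.606 with Stra8-KO testis 1, against 0.538 and 0.534 with testes 2 and 3. WT testis 2 had 0.615 to 0.618 with all 3, and WT testis 3 was closest to Stra8-KO testis 2 (0.657, against 0.638 with testis 3). A replicate effect shared by the genotypes at these loci was not tested.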
